A study of Homo sapiens with 8 samples.

Results

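The genes described here are 10 components, targets and brakes of insulin, PI3K and mTOR signalling around the FOXO transcription factors, chosen by symbol. They are the insulin receptor INSR and its adaptor IRS2, the brakes PIK3IP1, DDIT4, SESN1 and SESN3, the transcription factors FOXO1 and FOXO3, and the alpha-arrestins TXNIP and ARRDC3. The genes were chosen with earlier results of these data known, so counts set beside shares of all clusters describe them and test nothing. All 10 had a single transcript cluster in the deposited table, so they are 10 of 17881 clusters, and none was removed by a filter. Of these 10 clusters 1 carries a second symbol: the FOXO3 cluster is annotated FOXO3;FOXO3B, so its value cannot be split between FOXO3 and its near-identical relative.

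The insulin receptor and its adaptors switch on phosphoinositide 3-kinase (PI3K), whose lipid product brings the kinase AKT to the membrane, and AKT in turn activates the growth-promoting complex mTORC1. AKT phosphorylates the transcription factors FOXO1 and FOXO3 and keeps them out of the nucleus. When the pathway is quiet, nuclear FOXO factors raise genes that restrain growth and feed back on insulin signalling. Glucocorticoids are used against lymphoid leukemia, where they stop growth and cause cell death.

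Expression was measured on 8 exon arrays of cells labelled RS4;11, a line of B-cell precursor acute lymphoblastic leukemia with an MLL fusion. Cells had been transduced with an shRNA against BTG1, an antiproliferative protein of the BTG/TOB family, or with a control shRNA vector, and were then exposed for 8 h to prednisolone, a synthetic glucocorticoid, or to vehicle. The 4 groups of 2 arrays are BTG1 shRNA with prednisolone, BTG1 shRNA with vehicle, control shRNA with prednisolone and control shRNA with vehicle. The comparisons ask how prednisolone changes expression and how that change differs when BTG1 is targeted. The labels do not state that duplicates are separate cultures, so p-values measure the spread between arrays, which may be technical. All values are log2 expression levels. A level is set against other arrays for the same gene and not against other genes, whose probes differ. With 2 arrays a group, the arrays of 2 groups can stand apart without a true difference. The share of all clusters that did so was not counted, so standing apart is a description only. The number of arrays limits the precision: standard errors of the differences within a pair of groups ran from 0.17 to 0.33 for the 10 genes. The median difference between duplicates was 0.25 and 0.18 on the BTG1 shRNA arrays (prednisolone and vehicle), and 0.21 and 0.44 on the control arrays (prednisolone and vehicle). The first control vehicle array had an interquartile range of 2.95, below the 3.39 to 3.80 of the other arrays. Fits that leave out the second control vehicle array rest that group on this array alone.

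The labels were checked on the targeted gene and on lineage markers. The cluster annotated BTG1;LINC01619 read 8.14 and 7.80 with BTG1 shRNA and prednisolone, 7.15 and 7.42 with BTG1 shRNA and vehicle, 10.51 and 10.70 with control shRNA and prednisolone, and 9.34 and 9.36 with control shRNA and vehicle. It was thus lower on each of the 4 arrays labelled BTG1 shRNA than on each control array. NR3C1, the glucocorticoid receptor gene, read 7.25 and 7.25 with BTG1 shRNA and prednisolone, 7.77 and 7.12 with BTG1 shRNA and vehicle, 10.63 and 10.90 with control shRNA and prednisolone, and 9.72 and 10.24 with control shRNA and vehicle. Its levels on the arrays labelled BTG1 shRNA all lay below those on the control arrays. The T-cell receptor subunits CD3D, CD3E and CD3G ranked at percentile 99.0 or higher among all clusters on the arrays labelled BTG1 shRNA, and at percentile 34.7 or lower on control arrays. CD79A and PAX5, which define the B lineage, lay at percentiles 34.5 to 46.2 on the arrays labelled BTG1 shRNA and at 95.3 to 98.4 on control arrays. The summed log2 level of 13 measured B-lineage markers of 14 listed was 48.8 to 51.6 with BTG1 shRNA and prednisolone, 47.6 to 50.3 with BTG1 shRNA and vehicle, 96.0 to 96.1 with control shRNA and prednisolone, and 97.4 to 102.4 with control shRNA and vehicle. The sum over 14 T-lineage markers was 113.9 to 114.9 with BTG1 shRNA and prednisolone, 115.1 to 116.7 with BTG1 shRNA and vehicle, 61.7 to 63.8 with control shRNA and prednisolone, and 64.8 to 72.0 with control shRNA and vehicle. The arrays labelled BTG1 shRNA therefore went against the B-lineage label of the line, whether these cells are RS4;11 was not tested, and they are called by their label throughout. Every contrast between them and the control arrays carries the lineage difference as well, and the shRNA and the lineage cannot be told apart. The mean log2 level per array was 3.85 to 4.69 over 9 myeloid markers, 3.72 to 4.82 over 6 erythroid and platelet markers and 5.05 to 5.68 over 11 stromal and epithelial markers, with at most 1 marker of a list called between the shRNAs.

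**Figure D1:**
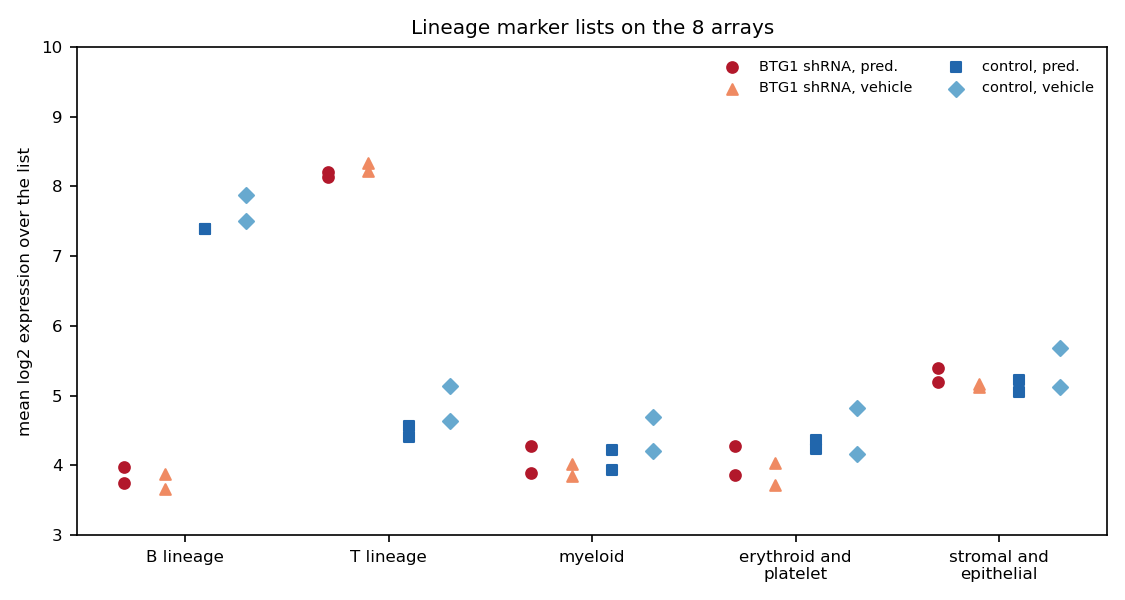
Mean log2 expression (vertical axis) of 5 lists of lineage markers (horizontal axis) on each of the 8 arrays, 1 point per array, with the groups told apart by colour and shape. The B-lineage mean was 3.66 to 3.97 on arrays labelled BTG1 shRNA and 7.39 to 7.88 on control arrays, and the T-lineage mean was 8.14 to 8.34 on arrays labelled BTG1 shRNA and 4.41 to 5.14 on control arrays.

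FOXO factors bind a forkhead core, so the promoter windows of the genes were searched for GTAAACA and its reverse complement TGTTTAC, which is the same motif read on the other strand. The windows are those of RefSeq on GRCh38.p14, from 250 bases before to 50 bases after a transcription start, and the 10 genes have 18 of them. The motif occurred in 3 windows, 1 each of TXNIP, ARRDC3 and PIK3IP1, and each of these genes also has a window without it. For PIK3IP1 the window without it, chr22:31292485-31292784, overlaps the window with the match, which falls outside the shared stretch. Over all genes the motif occurred in 3.42% of 35116 windows and at 4.19% of 27305 genes. These 3 windows are shown because they hold the motif, and because TXNIP and PIK3IP1 are the genes whose prednisolone effect differed between the shRNAs. All lie on the minus strand of their chromosome: TXNIP at chr1:145996530-145996829, PIK3IP1 at chr22:31292439-31292738 and ARRDC3 at chr5:91380048-91380347. They are written 5′ to 3′ in the direction of the gene, with the forkhead core in capitals.
TXNIP: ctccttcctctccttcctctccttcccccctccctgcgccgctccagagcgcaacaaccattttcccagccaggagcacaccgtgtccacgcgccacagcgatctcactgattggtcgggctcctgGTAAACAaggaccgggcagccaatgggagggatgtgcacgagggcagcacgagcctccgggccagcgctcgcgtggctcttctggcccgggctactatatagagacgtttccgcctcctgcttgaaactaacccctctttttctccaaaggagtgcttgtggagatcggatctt
PIK3IP1: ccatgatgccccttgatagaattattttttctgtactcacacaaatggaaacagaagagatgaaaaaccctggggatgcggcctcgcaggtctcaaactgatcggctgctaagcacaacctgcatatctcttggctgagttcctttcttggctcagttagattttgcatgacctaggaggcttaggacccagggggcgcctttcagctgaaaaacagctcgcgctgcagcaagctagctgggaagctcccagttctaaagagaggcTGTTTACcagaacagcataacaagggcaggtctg
ARRDC3: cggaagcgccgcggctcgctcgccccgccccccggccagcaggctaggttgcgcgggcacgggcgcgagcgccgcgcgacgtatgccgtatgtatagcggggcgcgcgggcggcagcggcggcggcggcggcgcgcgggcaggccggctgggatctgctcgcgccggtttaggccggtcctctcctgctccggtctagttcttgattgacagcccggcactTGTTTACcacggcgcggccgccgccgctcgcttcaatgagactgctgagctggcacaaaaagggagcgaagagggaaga
Counted from the start as position 1, with no position 0, the first base of the match lay at -124 in TXNIP, at 17 in PIK3IP1 and at -29 in ARRDC3. TXNIP carries the core in the gene's own direction, while PIK3IP1 and ARRDC3 carry its reverse complement. The palindrome of the glucocorticoid receptor in its strict form (AGAACA, any 3 bases, then TGTTCT) was in 0 of the 18 windows and in 1 of all 35116. A match of letters is a description of the window and not evidence of binding.

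INSR encodes the insulin receptor, and IRS2 the adaptor that links it to PI3K. INSR read 6.11 and 5.93 with BTG1 shRNA and prednisolone, 5.45 and 6.04 with BTG1 shRNA and vehicle, 8.99 and 8.92 with control shRNA and prednisolone, and 7.42 and 7.85 with control shRNA and vehicle. The highest group was control with prednisolone, followed without overlap by control with vehicle, and both BTG1 shRNA groups lay lowest and overlapped each other. IRS2 read 5.46 and 5.02 with BTG1 shRNA and prednisolone, 5.09 and 5.09 with BTG1 shRNA and vehicle, 6.08 and 5.93 with control shRNA and prednisolone, and 6.20 and 5.80 with control shRNA and vehicle. Its control arrays all lay above its BTG1 shRNA arrays, and within each shRNA the prednisolone and vehicle arrays overlapped.

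PIK3IP1 encodes a membrane protein that binds the catalytic subunit of PI3K and inhibits it. Its level was 4.62 and 4.72 with BTG1 shRNA and prednisolone, 4.02 and 3.86 with BTG1 shRNA and vehicle, 7.78 and 7.46 with control shRNA and prednisolone, and 4.62 and 4.24 with control shRNA and vehicle. Control cells with prednisolone stood far above the other 3 groups, among which BTG1 shRNA with prednisolone overlapped control with vehicle and BTG1 shRNA with vehicle lay lowest. Outside control with prednisolone the gene sat at percentiles 31.6 to 42.8 of its array, so how far it was above background there is unknown. DDIT4, also called REDD1, encodes a stress-induced inhibitor of mTORC1 that acts through the TSC complex. It read 5.73 and 5.18 with BTG1 shRNA and prednisolone, 4.44 and 4.59 with BTG1 shRNA and vehicle, 7.03 and 7.75 with control shRNA and prednisolone, and 4.88 and 4.98 with control shRNA and vehicle. The 4 groups of DDIT4 did not overlap: control with prednisolone was highest, then BTG1 shRNA with prednisolone, then control with vehicle, and BTG1 shRNA with vehicle was lowest. Under vehicle DDIT4 sat at percentiles 38.1 to 47.1 of its arrays, and its level above background there is unknown too.

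SESN1 and SESN3 encode sestrins, which restrain mTORC1 through the GATOR complexes. SESN1 is a known target of p53 and FOXO factors. It read 4.88 and 4.78 with BTG1 shRNA and prednisolone, 4.81 and 4.80 with BTG1 shRNA and vehicle, 8.01 and 8.95 with control shRNA and prednisolone, and 5.47 and 6.10 with control shRNA and vehicle. All 4 arrays labelled BTG1 shRNA lay between 4.78 and 4.88, below every control array, and the control prednisolone arrays stood above the control vehicle arrays. On the arrays labelled BTG1 shRNA SESN1 sat at percentiles 42.8 to 44.9, so how far it was above background there is unknown. SESN3, a known FOXO target, had the other order between the shRNAs. It read 6.82 and 6.38 with BTG1 shRNA and prednisolone, 6.32 and 6.55 with BTG1 shRNA and vehicle, 5.78 and 5.50 with control shRNA and prednisolone, and 4.09 and 4.48 with control shRNA and vehicle. Both BTG1 shRNA groups overlapped at the top, control with prednisolone came next and control with vehicle was lowest, at percentiles 26.2 and 39.8 of its arrays.

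FOXO1 and FOXO3 are the FOXO factors among the 10 genes, and FOXO1 is known for its part in early B-cell development. FOXO1 read 7.96 and 7.90 with BTG1 shRNA and prednisolone, 7.66 and 7.57 with BTG1 shRNA and vehicle, 9.30 and 9.06 with control shRNA and prednisolone, and 8.80 and 8.69 with control shRNA and vehicle. Its 4 groups did not overlap, and both control groups lay above both BTG1 shRNA groups. The FOXO3;FOXO3B cluster read 5.84 and 5.30 with BTG1 shRNA and prednisolone, 5.10 and 5.00 with BTG1 shRNA and vehicle, 5.65 and 5.62 with control shRNA and prednisolone, and 6.17 and 5.28 with control shRNA and vehicle. The BTG1 shRNA vehicle arrays were lowest, and the other 3 groups overlapped.

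TXNIP encodes an alpha-arrestin that binds thioredoxin and lowers glucose uptake, and ARRDC3 an alpha-arrestin that directs membrane receptors to endosomes. TXNIP read 8.84 and 8.62 with BTG1 shRNA and prednisolone, 9.35 and 9.23 with BTG1 shRNA and vehicle, 10.31 and 10.78 with control shRNA and prednisolone, and 8.42 and 8.67 with control shRNA and vehicle. Control with prednisolone was highest, BTG1 shRNA with vehicle came next, and BTG1 shRNA with prednisolone overlapped control with vehicle at the bottom. The level of TXNIP ranked at percentile 91.0 or higher on every array. ARRDC3 read 5.04 and 5.97 with BTG1 shRNA and prednisolone, 5.16 and 5.05 with BTG1 shRNA and vehicle, 4.83 and 5.29 with control shRNA and prednisolone, and 3.57 and 3.66 with control shRNA and vehicle. The control vehicle arrays were lowest, at percentiles 16.9 and 25.4 of their arrays, and the other 3 groups overlapped.

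**Figure D2:**
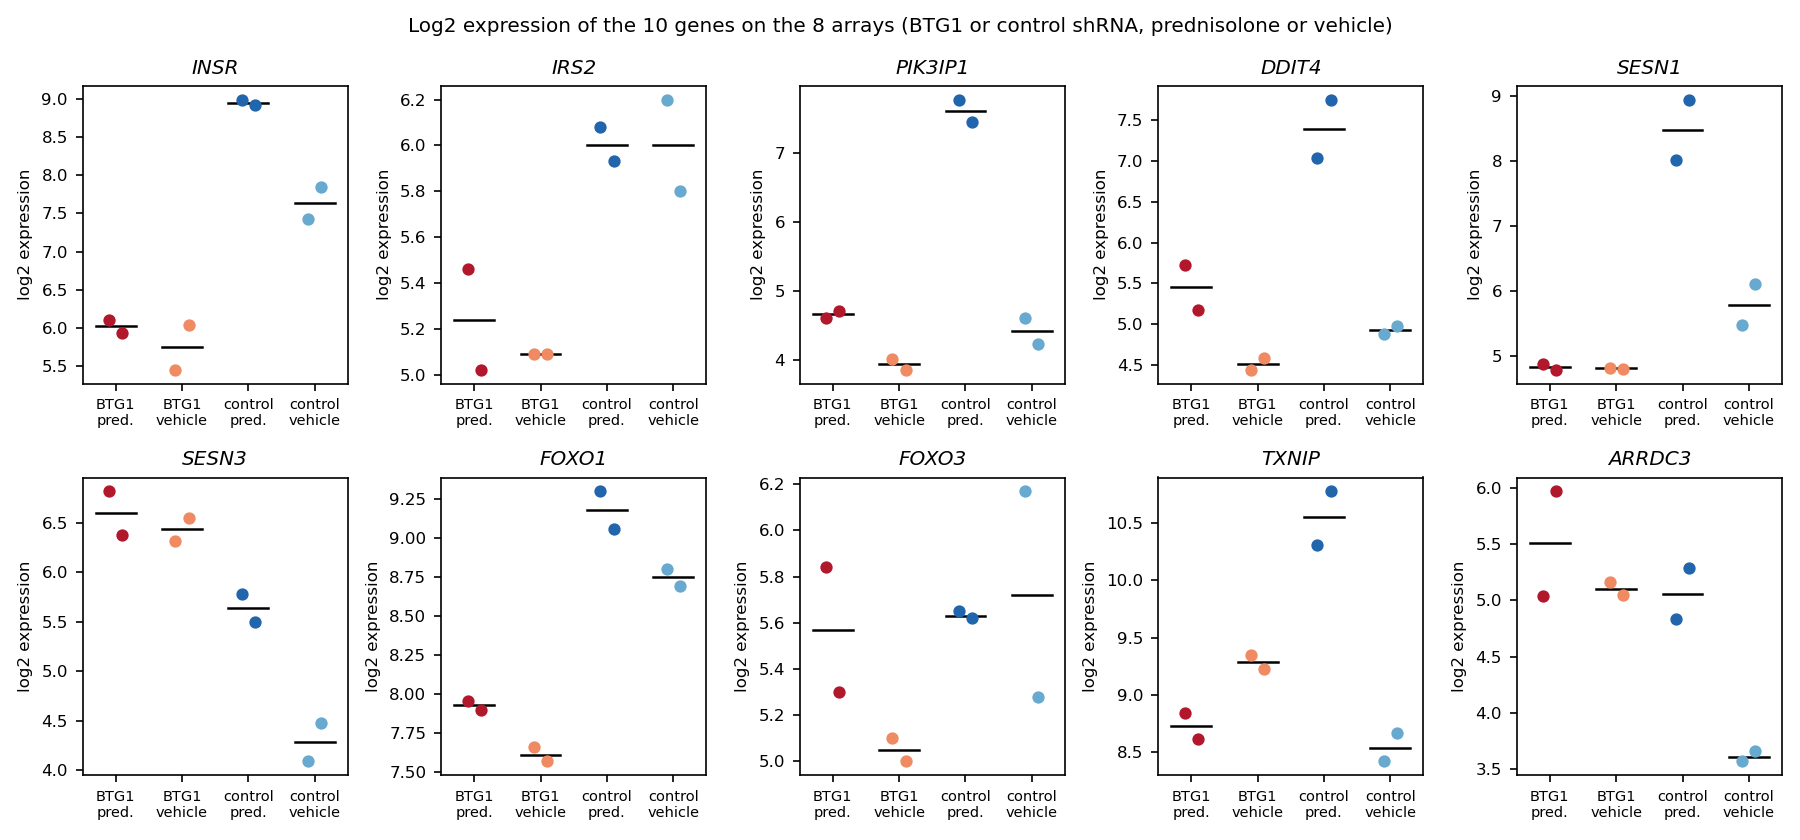
Log2 expression (vertical axis, its own range for each gene) of the 10 genes in the 4 groups (horizontal axis), with 1 point per array and a bar at the mean of the 2 arrays. Control with prednisolone is the top group for PIK3IP1 (7.62), SESN1 (8.48), DDIT4 (7.39), TXNIP (10.55), INSR (8.95) and FOXO1 (9.18), while SESN3 is highest on the BTG1 shRNA arrays (6.60 and 6.44).

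Prednisolone left the 10 genes without a called change on the arrays labelled BTG1 shRNA, where 0 of all 17881 clusters were called. Prednisolone raised 5 of the 10 genes in control cells. In control cells the PI3K inhibitor PIK3IP1 rose 9.11-fold, the mTORC1 brakes SESN1, DDIT4 and SESN3 rose 6.48-fold, 5.49-fold and 2.56-fold, and TXNIP rose 4.0-fold. In the fit to all 8 arrays without further normalization, INSR, ARRDC3, FOXO1, FOXO3 and IRS2 were not called with prednisolone in either cell background. Of these, ARRDC3 and INSR stood 2.72-fold and 2.5-fold higher with prednisolone in control cells (limma adjusted p = 0.0829 and 0.0557). The prednisolone effect itself differed between the backgrounds for TXNIP and PIK3IP1, and these 2 calls were fragile. The calls of the rises in control cells were fragile too, except that of PIK3IP1. With only the control arrays in the fit, PIK3IP1 alone of the 10 genes was called. In bulk samples such as these, fewer cells of a type and less RNA per cell cannot be told apart. Expression of the established glucocorticoid target TSC22D3 differed by 0.99 (SE 0.17, limma adjusted p = 1.0) on the arrays labelled BTG1 shRNA. There its interval was 0.6 to 1.38 (limma unadjusted p = 0.000458), and the prednisolone arrays all stood above the vehicle arrays. In control cells TSC22D3 rose by 2.67 (SE 0.17, limma adjusted p = 0.00118). The difference of its effects, arrays labelled BTG1 shRNA minus control arrays, was -1.68 and was not called (limma adjusted p = 0.0705).

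With prednisolone minus vehicle on the arrays labelled BTG1 shRNA, limma called 0 of the 10 genes in either direction, as it called 0.0% of all clusters higher and 0.0% lower. At an unadjusted p under 0.05 there were 186 clusters, 3 of them among the 10 genes, and 0 of the 10 were called under any of the alternative settings. DDIT4 differed by 0.94 (95% interval 0.28 to 1.61, adjusted p = 1.0), PIK3IP1 by 0.73 (0.24 to 1.21, adjusted p = 1.0) and TXNIP by -0.56 (-1.07 to -0.05, adjusted p = 1.0). The prednisolone arrays of DDIT4 and PIK3IP1 all stood above the vehicle arrays, and those of TXNIP below. FOXO3 differed by 0.52 and FOXO1 by 0.31, again without overlap of the arrays, and the share of all clusters without overlap was not counted. For ARRDC3 (0.40), INSR (0.27), SESN3 (0.17), IRS2 (0.15) and SESN1 (0.02) the arrays overlapped, and the interval for SESN1 was -0.75 to 0.80. None of the 10 genes differed by over 2-fold, a size that 0.213% of all clusters passed. The median over the genes was 0.29, beside 0.03 over all clusters.

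In control cells limma called 5 of the 10 genes higher and 0 lower with prednisolone, against 0.928% of all clusters higher and 0.587% lower. The list was chosen with earlier results of these data known, so the share beside it is a description and not a test. PIK3IP1 averaged 7.62 ± 0.22 with prednisolone and 4.43 ± 0.27 with vehicle (SD, n = 2 each), a difference of 3.19 (SE 0.21, limma adjusted p = 0.00121). SESN1 averaged 8.48 ± 0.67 with prednisolone and 5.78 ± 0.44 with vehicle, a difference of 2.70 (SE 0.33, adjusted p = 0.0115 by limma). The difference of DDIT4 was 2.46 (SE 0.29, adjusted p = 0.00921), that of TXNIP 2.00 (SE 0.22, adjusted p = 0.00723) and that of SESN3 1.36 (SE 0.24, adjusted p = 0.0437). For these 5 genes every prednisolone array lay above every vehicle array, though how many of all clusters did the same was not counted. The arrays were also apart for ARRDC3 (1.45, SE 0.31, adjusted p = 0.0829), INSR (1.32, SE 0.25, adjusted p = 0.0557) and FOXO1 (0.43, SE 0.17, adjusted p = 0.333), which did not pass. The arrays overlapped for FOXO3 (-0.09, 95% interval -0.82 to 0.64) and for IRS2 (0.00, 95% interval -0.52 to 0.52). By the 2-fold selection that the series' design names, 7 of the 10 genes were higher and 0 lower, a size passed by 5.26% of all clusters in either direction. The median over the 10 genes was 1.4, beside -0.16 over all clusters, and the latter shift was -0.05 after quantile normalization.

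These calls leaned on single arrays. Leaving out either array of a group outside the comparison gave the same fit. It left the difference unchanged, so the 8 fits with an array left out are not 8 separate checks. Without the second control prednisolone array only PIK3IP1 was called, while SESN1 stood at 2.22 (limma adjusted p = 0.0694), DDIT4 at 2.10 (adjusted p = 0.0694) and TXNIP at 1.76 (adjusted p = 0.0725), and 40 clusters were called in place of 271. With the 4 control arrays alone in the fit, PIK3IP1 again was the only one of the 10 called (adjusted p = 0.0269), among 16 clusters. The adjusted p of PIK3IP1 ran from 0.00342 to 0.0182 as each array was left out in turn. SESN3 kept its call in 1 of the 8 fits with an array left out, the one that dropped control vehicle array 2 (1.55, adjusted p = 0.0375), and elsewhere its adjusted p was 0.0653 to 0.213. INSR was called in that same fit (1.53, adjusted p = 0.0407). The call of SESN3 also ended with arrays centred on their median (1.48, adjusted p = 0.0661), after quantile normalization (1.58, 0.0800) and with an intensity trend (1.36, 0.0546), while its difference was no smaller. INSR passed with the trend (adjusted p = 0.0448) and without dim clusters (0.0417).

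**Figure D3:**
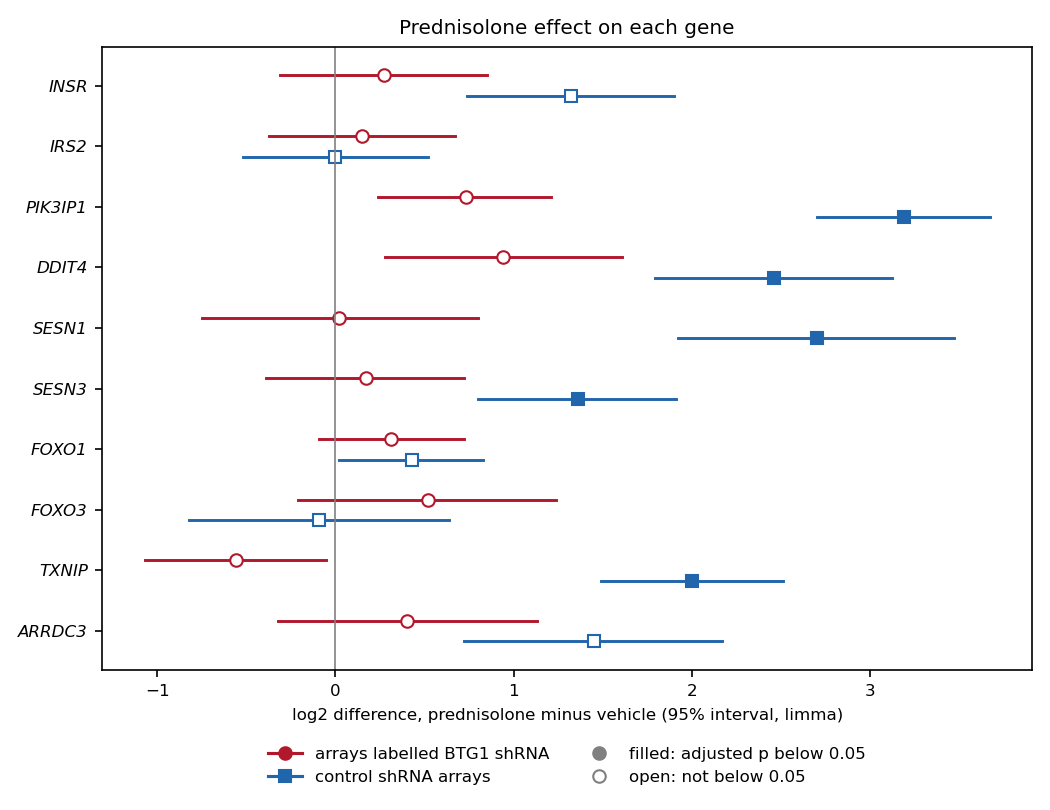
Log2 difference with its 95% interval (horizontal axis), prednisolone minus vehicle, for each of the 10 genes (vertical axis), on the arrays labelled BTG1 shRNA (circles) and on control shRNA arrays (squares). Filled symbols have a limma adjusted p below 0.05: 0 circles and 5 squares are filled, with PIK3IP1 farthest right at 3.19.

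**Figure D4:**
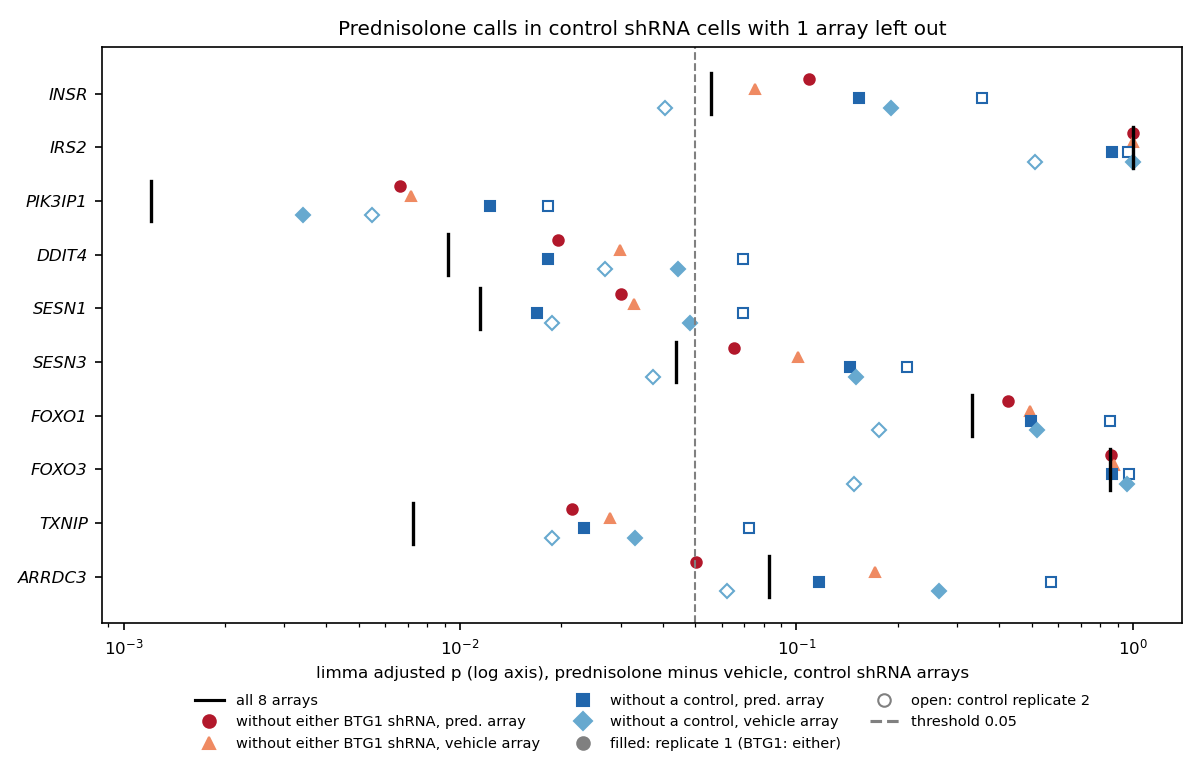
Limma adjusted p (horizontal axis, log scale) of the prednisolone difference in control cells for the 10 genes (vertical axis), from all 8 arrays (black bar) and with 1 array left out (symbols), with the threshold of 0.05 as a dashed line. Every symbol of PIK3IP1 is left of the line, at most 0.0182, while those of SESN1, DDIT4 and TXNIP cross it without the second control prednisolone array.

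The difference of the 2 prednisolone effects, arrays labelled BTG1 shRNA minus control arrays, was tested in the same fit. It was called lower for 2 of the 10 genes and higher for 0, against 0.106% and 0.028% of all clusters. The effect on TXNIP was -0.56 on the arrays labelled BTG1 shRNA and 2.00 on control arrays, a difference of -2.56 (95% interval -3.29 to -1.84, limma adjusted p = 0.0441). The effect on PIK3IP1 was 0.73 on the arrays labelled BTG1 shRNA and 3.19 on control arrays, a difference of -2.46 (-3.15 to -1.77, adjusted p = 0.0441). TXNIP and PIK3IP1 each have a promoter window with the forkhead core, as does ARRDC3, which was not called here. The windows of SESN1 have none, and whether the core has a part was not tested. SESN1 had the largest estimate of the 10, -2.67 (SE 0.47), but did not pass (adjusted p = 0.111). Also short of the threshold were DDIT4 (-1.51, adjusted p = 0.347), SESN3 (-1.19, adjusted p = 0.379), INSR (-1.05, adjusted p = 0.475) and ARRDC3 (-1.04, adjusted p = 0.536). Intervals for IRS2 (0.15, -0.59 to 0.89), FOXO1 (-0.11, -0.69 to 0.46) and FOXO3 (0.60, -0.43 to 1.64) spanned 0. The median over the 10 genes was -1.12, beside 0.20 over all clusters without further normalization and 0.06 after quantile normalization. TXNIP was called in 0 of 8 fits with an array left out (adjusted p 0.0565 to 0.348) and PIK3IP1 in 1 of 8, without the first control vehicle array (0.0484). TXNIP also missed the threshold with centred arrays (0.0754) and quantile normalization (0.0508), and PIK3IP1 when clusters with a value starting with 1 were left out (0.0604) and, with an adjusted p at the threshold of 0.05 but not below it, with an intensity trend. The lineage difference between the backgrounds, and the lower NR3C1, go with this contrast, and their part in it was not tested.

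Between the shRNAs under prednisolone, SESN1, PIK3IP1, INSR, DDIT4, TXNIP and FOXO1 were lower on the arrays labelled BTG1 shRNA and SESN3 was higher. Of the 10 genes 6 were called lower and 1 higher, against 7.51% and 10% of all clusters. SESN1 averaged 4.83 ± 0.07 with BTG1 shRNA and 8.48 ± 0.67 with control shRNA (SD, n = 2 each), a difference of -3.65 (SE 0.33, limma adjusted p = 0.000267). PIK3IP1 averaged 4.67 ± 0.07 with BTG1 shRNA and 7.62 ± 0.22 with control shRNA, a difference of -2.95 (SE 0.21, adjusted p = 8.04e-05 by limma). INSR differed by -2.94 (SE 0.25, adjusted p = 0.000191), DDIT4 by -1.93 (SE 0.29, adjusted p = 0.00286), TXNIP by -1.81 (SE 0.22, adjusted p = 0.00108) and FOXO1 by -1.25 (SE 0.17, adjusted p = 0.00213). These 6 calls held in each of the 8 fits with an array left out. SESN3 differed by 0.96 (SE 0.24, adjusted p = 0.0296) and lost its call in 5 of the 8, where its adjusted p was 0.0554 to 0.192. It stood at 0.74 with BTG1 shRNA prednisolone array 1 left out, at 1.10 and 0.82 with control prednisolone array 1 or 2 left out, and at 0.96 with either BTG1 shRNA vehicle array left out. Centring on the median (0.0841), quantile normalization (0.123) and an intensity trend (0.0520) ended its call too. IRS2 (-0.76, adjusted p = 0.0551) did not pass, though its arrays did not overlap, and without either control vehicle array (adjusted p = 0.0313), with centred arrays (0.0109) and after quantile normalization (0.0269) it did. The arrays overlapped for ARRDC3 (0.45, adjusted p = 0.481) and FOXO3 (-0.07, 95% interval -0.79 to 0.66). Over 2-fold lower were 6 of the 10 genes, a size that 15.8% of all clusters passed in either direction. The median over the 10 genes was -1.53, beside 0.04 over all clusters.

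Under vehicle SESN3 and ARRDC3 were higher on the arrays labelled BTG1 shRNA, INSR, FOXO1 and IRS2 were lower, and PIK3IP1, DDIT4, SESN1, TXNIP and FOXO3 did not pass. Of the 10 genes 2 were called higher and 3 lower, against 8.46% and 6.21% of all clusters, and 4 differed by over 2-fold, against 14.2%. SESN3 averaged 6.44 ± 0.16 with BTG1 shRNA and 4.29 ± 0.27 with control shRNA (SD, n = 2 each), a difference of 2.15 (SE 0.24, limma adjusted p = 0.000794). ARRDC3 differed by 1.49 (SE 0.31, adjusted p = 0.0168), from a dim level on the control arrays. INSR differed by -1.89 (SE 0.25, adjusted p = 0.00189), FOXO1 by -1.13 (SE 0.17, adjusted p = 0.00397) and IRS2 by -0.91 (SE 0.22, adjusted p = 0.0319). The calls of SESN3 and INSR held in each of the 8 fits with an array left out. Without the second vehicle array labelled BTG1 shRNA, FOXO1 (-1.09, adjusted p = 0.0506), ARRDC3 (1.54, adjusted p = 0.0859) and IRS2 (-0.92, adjusted p = 0.167) lost theirs. Without the first such array ARRDC3 (adjusted p = 0.0973) and IRS2 (0.155) did, and the same 2 without the first control vehicle array (0.0614 and 0.115). IRS2 also fell short without either control prednisolone array (0.0565), where SESN1 passed (-0.98, 0.0495), and with an intensity trend (0.0654) or only the vehicle arrays in the fit (0.0777). With control vehicle array 2 left out, control vehicle rested on array 1, whose interquartile range of 2.95 was the lowest of all arrays. TXNIP then stood at 0.87, PIK3IP1 at -0.68 and FOXO3 at -1.12.

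With all 8 arrays, TXNIP under vehicle differed by 0.75 (SE 0.22, limma adjusted p = 0.0634), SESN1 by -0.98 (SE 0.33, adjusted p = 0.101), FOXO3 by -0.67 (SE 0.31, adjusted p = 0.209), PIK3IP1 by -0.49 (SE 0.21, adjusted p = 0.173) and DDIT4 by -0.42 (SE 0.29, adjusted p = 0.341). For all 5 the arrays of the shRNAs stood apart under vehicle, a pattern whose share over all clusters was not counted. The median over the 10 genes was -0.58, beside -0.15 over all clusters without further normalization and -0.04 after quantile normalization. In both comparisons of the shRNAs the marker lists moved too: 10 of 13 B-lineage markers were lower under prednisolone and 11 under vehicle, and 11 of 14 T-lineage markers were higher under each.

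**Figure D5:**
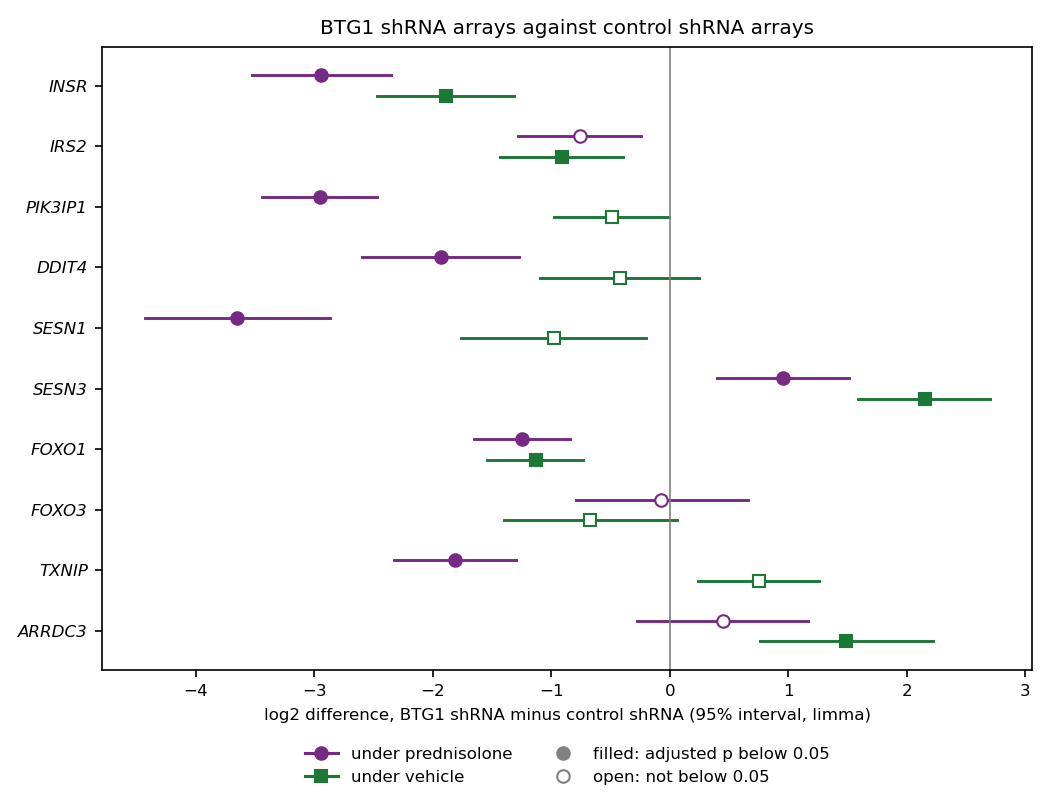
Log2 difference with its 95% interval (horizontal axis), BTG1 shRNA minus control shRNA, for the 10 genes (vertical axis), under prednisolone (circles) and under vehicle (squares). Filled symbols have a limma adjusted p below 0.05. PIK3IP1 lies at -2.95 under prednisolone and -0.49 under vehicle, SESN1 at -3.65 and -0.98, and SESN3 on the right at 0.96 and 2.15.

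Other genes of the pathway were counted in 5 lists, over members with a cluster of their own symbol. Of the PI3K and AKT genes 16 of 24 listed had one, of the mTOR genes 29 of 30 and of the FOXO targets 24 of 28. For arrestins, thioredoxin and glucose uptake it was 9 of 11, and for other FOXO factors 1 of 2. With prednisolone on the arrays labelled BTG1 shRNA 0 members of any list were called. The share of all clusters called higher and lower was 0.0% and 0.0% there, and 0.928% and 0.587% in control cells. The lists too were chosen with earlier results of these data known, so these shares describe them and test nothing. In control cells 1 of 16 PI3K and AKT genes rose, the FOXO kinase SGK1 (4.64, limma adjusted p = 0.000567), and the list's median was -0.18 beside -0.16 over all clusters. Among 29 mTOR genes only the sestrin SESN2 rose (1.17, adjusted p = 0.0288), with a median of -0.05. Of 24 FOXO targets the ubiquitin ligase FBXO32, also called atrogin-1, rose (1.99, adjusted p = 0.00421), the pseudokinase TRIB1 fell (-1.53, adjusted p = 0.0127), and the median was 0.12. SESN2 is the remaining sestrin beside SESN1 and SESN3. None of 9 genes of arrestins, thioredoxin and glucose uptake was called (median -0.22), nor was FOXO4 (0.43), the other FOXO factor measured. For the difference of the effects SGK1 was called (-4.42, adjusted p = 0.00862) and 0 members of the other lists. Of all clusters 0.028% were called higher and 0.106% lower for that difference.

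Between the shRNAs, the share of all clusters called higher and lower was 10% and 7.51% under prednisolone, and 8.46% and 6.21% under vehicle, and the counts of the lists are to be read against these shares. Under prednisolone 2 PI3K and AKT genes were higher and 5 lower of 16, with PIK3R3, a regulatory subunit of PI3K, at 5.25 (limma adjusted p = 2.39e-05), SGK1 at -4.72, the catalytic subunit PIK3CG at -2.64 and the lipid phosphatase INPP5D at -2.41. Under vehicle 1 was higher and 5 lower, with PIK3R3 at 4.31 (adjusted p = 6.16e-05), the phosphatases PHLPP1 at -2.47 and INPP5D at -2.31, and the catalytic subunit PIK3CD at -1.93. PIK3CG, PIK3CD and INPP5D are known chiefly from blood cells, and the lineage markers differ on the same arrays. Of the mTOR genes 2 were higher and 2 lower of 29 under prednisolone, counts near those shares, among them the GTPase RRAGD (1.37, adjusted p = 0.0325), the mTORC1 subunit RPTOR (0.74, adjusted p = 0.0324) and the insulin receptor adaptor GRB10 (-2.26, adjusted p = 0.000165). DEPDC5, a GATOR1 subunit, was the other lower one (-0.92, adjusted p = 0.0467). Under vehicle RRAGD (1.49, adjusted p = 0.0268) was higher and GRB10 (-2.16, adjusted p = 0.000233) lower.

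FOXO targets were higher in 3 and lower in 8 of 24 cases under prednisolone (median -0.26 beside 0.04 over all clusters), and higher in 3 and lower in 7 under vehicle (median -0.29 beside -0.15). The counts of higher targets were near the shares over all clusters, 10% under prednisolone and 8.46% under vehicle. Among the lower ones, the interleukin-7 receptor IL7R stood at -6.72 and the repressor BCL6 at -2.18 under prednisolone, and at -7.04 and -3.32 under vehicle. The lymphocyte egress receptor S1PR1 was higher, at 3.27 under prednisolone and 3.03 under vehicle. FBXO32 was lower under prednisolone (-2.02, adjusted p = 0.000185 by limma) and TRIB1 under vehicle (-2.08, adjusted p = 0.000337). Of the arrestin, thioredoxin and glucose genes, the glucose transporter SLC2A1 (1.26, adjusted p = 0.003) and the thioredoxin reductase TXNRD1 (0.86, adjusted p = 0.0418) were higher under prednisolone, and under vehicle the alpha-arrestin ARRDC2 was lower (-1.25, adjusted p = 0.00775).

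The clusters whose pattern was most like each gene were found as the root mean square log2 difference over the 8 arrays, each profile centred on its own mean. For TXNIP they were CHKA (0.22), SLC25A24 (0.24) and DNMT3B (0.25), beside a median of 0.90 over all clusters, and for PIK3IP1 they were SMIM3 (0.25), MAP3K6 (0.30) and CHRNA1 (0.33), beside 1.49. SESN1 was most like ELL2 (0.19), WDR91 (0.28) and ARHGAP18 (0.28), and DDIT4 like CLIC5 (0.29), FMO5 (0.33) and NCOA7 (0.35). Each of these clusters was higher with prednisolone than with vehicle in control cells, by 1.68 to 2.94, and lay within 0.37 of its vehicle level on the arrays labelled BTG1 shRNA. SESN3 was most like ETS1 (0.17), MAP1A (0.29) and PGM2L1 (0.30), and ARRDC3 like FNBP1L (0.24), SPMIP4 (0.28) and ZHX3 (0.31). For INSR the nearest were HLA-F (0.17), SMARCA2 (0.17) and PIR (0.23). FOXO1 was nearest to SAMD4A (0.06), GALK1 (0.13) and KLF6 (0.14), and IRS2 to CAPN2 (0.06), PLEKHO2 (0.06) and KCNG1 (0.07). FOXO3 was nearest to MROH5 (0.11), ADORA3 (0.12) and SPAG4 (0.13), beside a median of 0.43. These are likenesses over 8 arrays in 4 groups and carry no test.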

How the data were processed

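The deposited value table holds a score per transcript cluster: log2 expression values in which most decimal points are missing, as seen in the values. The tools were RMA (robust multi-array averaging) and Partek, per the submitters' processing notes, with versions and settings not given in the sources used here. Per the labels, the authors summarised probes over core meta-probe sets built on hg18. Of 143048 values 153 kept a point. A point was restored behind digit 1 of each value, or behind digit 2 where the value started with 1 (2831 values, 2 of them TXNIP's in control cells with prednisolone). Correlations between arrays were 0.446 to 0.587 as deposited and 0.872 to 0.995 afterwards. The unit thus differed from the plain log2 assumed when the tests were chosen, and the tests were kept. No further normalization or filter was applied, and 0 columns were left out.

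For each of the 17881 clusters, limma 3.58.1 (lmFit, eBayes; R 4.3.3) estimated the 4 group means from all 8 arrays. Residual degrees of freedom were 4 and prior ones 3.51. There were 5 contrasts, each adjusted by Benjamini-Hochberg over all clusters, with a threshold of 0.05. Every adjusted p is from this fit unless a setting is named, and 95% intervals are from it too. The code was tested on simulated data. Symbols are those of the platform annotation: 14432 clusters have 1 symbol, 2408 several and 1041 none. Percentiles give a cluster's rank among all clusters on its array.

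The genes and lists were chosen with earlier results of these data known. Named are all 10 genes, BTG1, NR3C1 and TSC22D3 as checks, 5 defining lineage markers, up to 4 called members per pathway list and contrast with the smallest p, and the 3 clusters with 1 symbol most like each gene. Promoter sequences are RefSeq's on GRCh38.p14, and all 10 genes matched. Positions of the clusters were not used here. Alternatives were quantile normalization, centring on the median, leaving out dim clusters or clusters with a value starting with 1, an intensity trend, only the arrays compared, a replicate block and leaving out each array.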

Additional observations from a re-analysis of the deposited data

Results flagged for a closer look

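The prednisolone effects on TXNIP and PIK3IP1 differed between the cell backgrounds by a test of the difference itself, arrays labelled BTG1 shRNA minus control arrays. The difference was -2.56 for TXNIP (limma adjusted p = 0.0441), with effects of -0.56 on the arrays labelled BTG1 shRNA and 2.00 on control arrays. It was -2.46 for PIK3IP1 (adjusted p = 0.0441), with effects of 0.73 on the arrays labelled BTG1 shRNA and 3.19 on control arrays. Over the alternatives that gave a value, the adjusted p ran from 0.0191 to 0.348 for TXNIP, which was called in 3 of 13, and from 0.0198 to 0.348 for PIK3IP1, called in 4 of 13. Groups of 2 arrays are too small for a test of single outlying arrays.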

How the results depend on the processing

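With only the arrays compared in the fit, prednisolone in control cells gave 1 called gene of the 10 and 16 called clusters. For the difference of the prednisolone effects, centring arrays on the median gave 1 gene and 14 clusters, leaving out clusters with a value starting with 1 gave 0 genes (TXNIP is then not tested) and 8 clusters, leaving out dim clusters gave 1 gene (PIK3IP1 is then not tested, and TXNIP was still called), and an intensity trend and quantile normalization gave 1 gene each. The replicate numbers name arrays and are not stated to pair them: same-numbered deviations correlated at 0.007 to 0.593 over 6 pairs of groups. With the replicate block, 755 clusters were called for prednisolone in control cells, 4553 for the shRNAs under vehicle and 96 for the difference of effects, and 7, 7 and 3 of the 10 genes. In control cells with this block SESN3 (adjusted p = 0.0275), INSR (0.0270) and ARRDC3 (0.0295) were all called. With 1 array left out, the lone array of a group is assumed to vary like the other groups. Leaving out either array of a group outside a contrast gave the same fit, so counts over these fits hold some fits more than once. Prednisolone in control cells then gave 1 to 6 genes and 40 to 770 clusters, the shRNAs under vehicle 2 to 8 genes and 1289 to 5958 clusters, under prednisolone 1746 to 3891 clusters, and the difference of effects 0 to 1 genes and 0 to 24 clusters. On the arrays labelled BTG1 shRNA 0 to 1 genes passed 2-fold with prednisolone.

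Sign changes occurred in differences that were never called. Prednisolone in control cells gave 0.04 for FOXO3 after centring and -0.02 for IRS2 after quantile normalization, and with 1 array left out -0.53 to 0.36 and -0.20 to 0.20. On the arrays labelled BTG1 shRNA SESN1 was at -0.02 after centring and -0.05 after quantile normalization, and with 1 array left out at -0.03 to 0.08, SESN3 at -0.06 to 0.39, IRS2 at -0.07 to 0.37, ARRDC3 at -0.06 to 0.87 and INSR at -0.02 to 0.57. Between the shRNAs under prednisolone FOXO3 was at -0.34 to 0.20 and ARRDC3 at -0.02 to 0.91. For the difference of effects IRS2 was at -0.02 after centring and -0.07 to 0.37 with 1 array left out, and FOXO1 at 0.10 after quantile normalization and -0.23 to 0.00. Of 400 differences of the 10 genes with 1 array left out 340 kept direction and side of the threshold, as did 293 of 325 under the other settings. Each gene has 1 cluster, so another cluster could not be tried, and the difference of effects already uses all arrays. The level above background of dim clusters is unknown.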
